A study of Bos taurus with 12 samples.

Results

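Caruncular endometrium was compared between bred heifers that held no conceptus and heifers that were not bred, so by their labels neither side of the comparison carried an embryo. The non-pregnant (NP) group comprised heifers 72, 74, 75 and 77, which were bred after detected estrus and in which no conceptus was found. The cyclic (C) group comprised heifers 3, 4, 5 and 6, which were not bred. These 8 RNA-Seq libraries, of 12 in the series, were taken by their group label, and genes were taken by abundance alone. The rule asked for a mean of 10 or more raw counts over the 8 libraries, which 1392 of 27270 Ensembl genes met. The lowest mean kept was 10 counts and the highest left out was 9.88. All animals were Angus heifers of 2 to 3 years on pasture, and the estrous cycles of both groups were synchronized with prostaglandin F2 alpha. Tissue was frozen, and each library came from 1 heifer, in which several caruncles were collected. The pregnant (P) heifers 73, 76, 78 and 79 entered the fit for the estimate of the spread and the TMM scaling, and the comparison itself was of NP with C. Heifers are named here by the numbers in the sample titles, which the labels do not call animal numbers. The bred and the cyclic heifers carry separate runs of these numbers. Breeding cannot be told apart from anything else in which the 2 sets of animals differ. The sampling day of the non-pregnant and cyclic heifers was not given separately in the sources used here, so breeding and cycle day cannot be told apart either. In whole tissue, fewer cells of a type and less RNA per cell cannot be told apart.

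The caruncle is the gland-free part of the ruminant endometrium at which the placenta attaches. In the luteal phase of the cycle, progesterone from the corpus luteum shapes endometrial expression. If no embryo signals with interferon tau, the endometrium releases pulses of prostaglandin F2 alpha and the corpus luteum regresses. The comparison of NP with C asks how far bred and unbred endometrium differ when no conceptus is present. The files pair no Ensembl ID with a gene symbol. The RefSeq gene table used here lists no Ensembl IDs, so the 27270 IDs could not be paired through it. The genes below are given by ID with no role, and the tissue label could not be checked against marker genes.

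Gene counts per library summed to between 102257 and 160862 in NP heifers and between 111177 and 123761 in C heifers. These sums are a small part of the reads that the study's account of its sequencing describes, so precision is set by the deposited counts and not by the depth of sequencing. The library kit, TruSeq Stranded mRNA, keeps strand, and whether reads were counted on the strand of the gene is not given in the sources used here. Reads counted on the opposite strand would make each value a count of antisense reads at that gene. This was not tested, and it bears on every gene below. The genes tested held 82.7% of the counts of these libraries, and 1357 of them had a count in all 8. Levels are given as TMM-normalized CPM, each count being scaled to the library total over the genes tested, where 1 count stood for between 6.57 CPM (NP heifer 77) and 12.04 CPM (NP heifer 74). Total counts differed by 9119 between the group means (NP minus C), a two-sided exact permutation p of 0.657 and an adjusted p of 0.714 over 3 measures. The number of genes with a count averaged 8844 ± 1147 in NP and 8543 ± 383 in C libraries (SD, n = 4 each; exact permutation p = 0.686, adjusted p = 0.714). The 10 most abundant genes of a library took 23.6% ± 4.9 of its counts in NP and 22.4% ± 2.3 in C libraries (SD, n = 4 each; exact permutation p = 0.714, adjusted p = 0.714). The smallest p that 4 heifers against 4 allow is 0.0286. NP heifer 74 and C heifer 5 stood apart from their groups in the correlations between libraries, and results that rest on them are given with and without them.

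Of the 1392 genes tested between NP and C endometrium, 1 (0.0718%) was called, with a change of more than 2-fold and an edgeR FDR below 0.05, and it was lower in NP heifers. By edgeR, 0 genes were called higher in NP heifers, where 43 had an unadjusted p under 0.05. DESeq2 on 12 libraries called 1 gene higher and 6 lower, and limma-voom 0 higher and 1 lower. The gene that edgeR called, ENSBTAG00000030648, had 581, 566, 796 and 901 CPM in NP heifers 72, 74, 75 and 77, against 6214, 2290, 2130 and 4709 CPM in C heifers 3, 4, 5 and 6. Every NP heifer lay below every C heifer, and the C heifers were spread widely, with heifers 3 and 6 far above heifers 4 and 5. The NP heifers averaged 711 ± 165 CPM and the C heifers 3836 ± 1976 CPM (SD, n = 4 each), on 322 counts in NP and 1518 counts in C libraries. ENSBTAG00000030648 thus fell by 2.43 on the log2 scale in NP endometrium (standard error 0.38, 95% interval -3.24 to -1.61, edgeR FDR 0.0260). The call was lost, with a log2 fold change of -2.45 to -2.09, without any single one of NP heifers 72, 74 and 75 or C heifers 3 and 6, and when edgeR was fitted without the pregnant libraries (FDR 0.115). It was also lost with library totals in place of TMM (FDR 0.0684), and without pregnant heifer 73 (FDR 0.0542) or 79 (FDR 0.0505). It was kept without C heifer 5 (FDR 0.00357) and without both C heifer 5 and NP heifer 74 (FDR 0.0091). DESeq2 (adjusted p 1.3e-06) and limma-voom (FDR 0.0278) on 12 libraries kept it as well. Of 23 alternatives, 14 called the gene and 9 did not. Pregnant heifers had 680 to 1457 CPM of this gene.

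ENSBTAG00000015176 was the gene with the next smallest p among those lower in NP heifers, and it did not pass the FDR. Its values were 294, 313, 485 and 736 CPM in NP heifers 72, 74, 75 and 77, against 3214, 3106, 795 and 1901 CPM in C heifers 3, 4, 5 and 6. The groups did not overlap, but the gap rested on C heifer 5, which lay just above NP heifer 77 and far below the other C heifers. The means were 457 ± 205 CPM in NP and 2254 ± 1140 CPM in C heifers (SD, n = 4 each), and NP over C gave -2.29 on the log2 scale (standard error 0.43, edgeR FDR 0.0674). Without C heifer 5 the gene was called, at -2.56 on the log2 scale (edgeR FDR 0.00357). DESeq2 called it with all 8 heifers, at an adjusted p of 0.000226 in a fit of 12 libraries. Pregnant heifers had 455 to 846 CPM.

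The genes with the smallest p among those higher in NP heifers had few counts and smaller differences. ENSBTAG00000009565 had 294, 277, 162 and 289 CPM in NP heifers 72, 74, 75 and 77, against 126, 159, 108 and 120 CPM in C heifers 3, 4, 5 and 6. These values rest on 14 to 44 counts per NP library and 11 to 16 counts per C library. NP heifer 75 lay just above C heifer 4 in CPM, but on 14 counts against 16, so the groups overlapped before scaling. The other NP heifers lay well above all C heifers. ENSBTAG00000009565 was 0.99 higher in NP heifers on the log2 scale (standard error 0.27, edgeR FDR 0.262), which did not pass the test. Pregnant heifers had 219 to 257 CPM.
ENSBTAG00000044123 had 202, 157, 219 and 138 CPM in NP heifers 72, 74, 75 and 77, against 48.5, 99.6, 58.9 and 32.8 CPM in C heifers 3, 4, 5 and 6. Here too the groups did not overlap in CPM, on 77 counts in the NP libraries and 24 in the C libraries. With so few C counts, only the higher level in NP heifers brought this gene past the rule on abundance. Its direction is therefore no support for a difference. NP heifers were 1.55 higher on the log2 scale (standard error 0.42, edgeR FDR 0.262), which did not pass the test. ENSBTAG00000009565 was called in 0 of 23 alternatives and ENSBTAG00000044123 in 0 of 22, and neither turned direction. Pregnant heifers had 103 to 265 CPM. The comparison of pregnant with cyclic heifers shares the C libraries with that of NP heifers, so the pregnant values are given only beside the others.

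**Figure D1:**
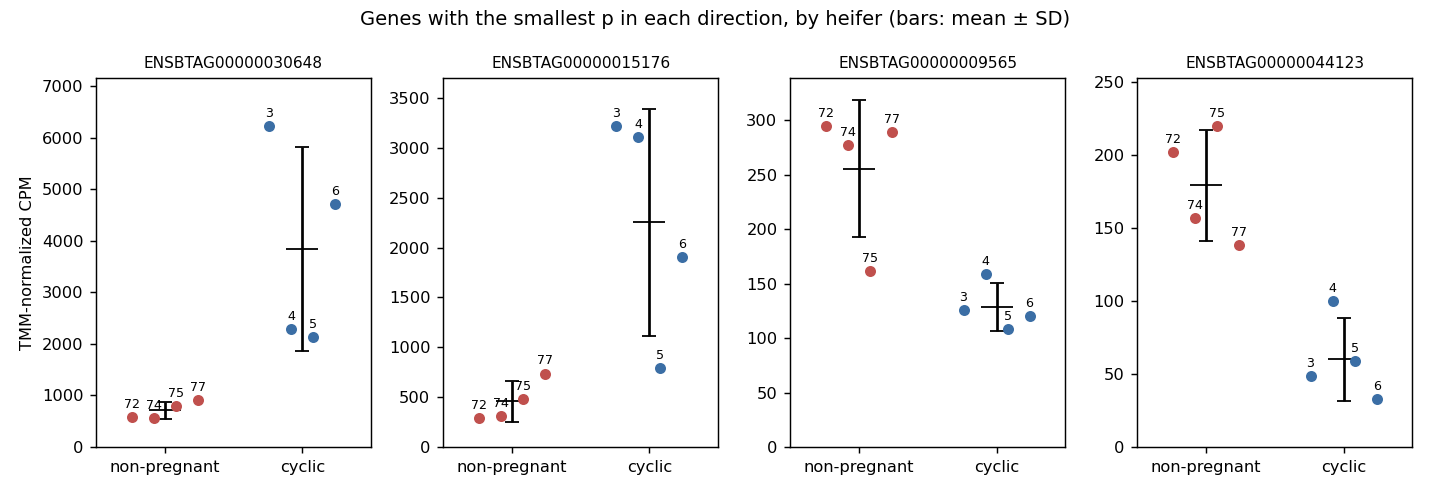
TMM-normalized CPM of 4 genes, the 2 with the smallest p in each direction, with 1 point per heifer (numbered), non-pregnant on the left and cyclic on the right of each panel, and bars for the mean ± SD. No panel overlaps between groups in CPM. Cyclic heifer 5 lies at 795 CPM of ENSBTAG00000015176, just above the highest non-pregnant heifer at 736 CPM. For ENSBTAG00000009565, non-pregnant heifer 75 at 162 CPM lies barely above cyclic heifer 4 at 159 CPM.

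Below the FDR threshold, differences leaned towards lower values in NP endometrium. At an unadjusted p under 0.05, 131 genes (9.41%) differed, 43 higher (3.09%) and 88 lower (6.32%) in NP heifers. Past a 2-fold difference without any test lay 119 genes (8.55%), 34 higher (2.44%) and 85 lower (6.11%), and 80 of these also had an unadjusted p under 0.05. Whether this lean extended to all genes could not be seen, because TMM scaling over the same genes brings the centre of the differences towards no change. The median log2 fold change over the 1392 genes was 0.03, 52.9% of them were higher in NP heifers by any amount, and the middle 50% lay between -0.29 and 0.35.
A count of genes at which all 4 NP heifers lay on the same side of all 4 C heifers was nearly even. There were 65 such genes (4.67%), 32 with NP above C (2.30%) and 33 with NP below C (2.37%). Of these, 23 also differed by more than 2-fold, 7 higher and 16 lower in NP heifers. With no filter on low counts, the lean turned round, with 466 genes higher and 365 lower in NP heifers at an unadjusted p under 0.05 among 15896 tested. Among the genes kept by abundance, the lean lay in the size of the differences and in the p-values more than in the separation of the groups.

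**Figure D2:**
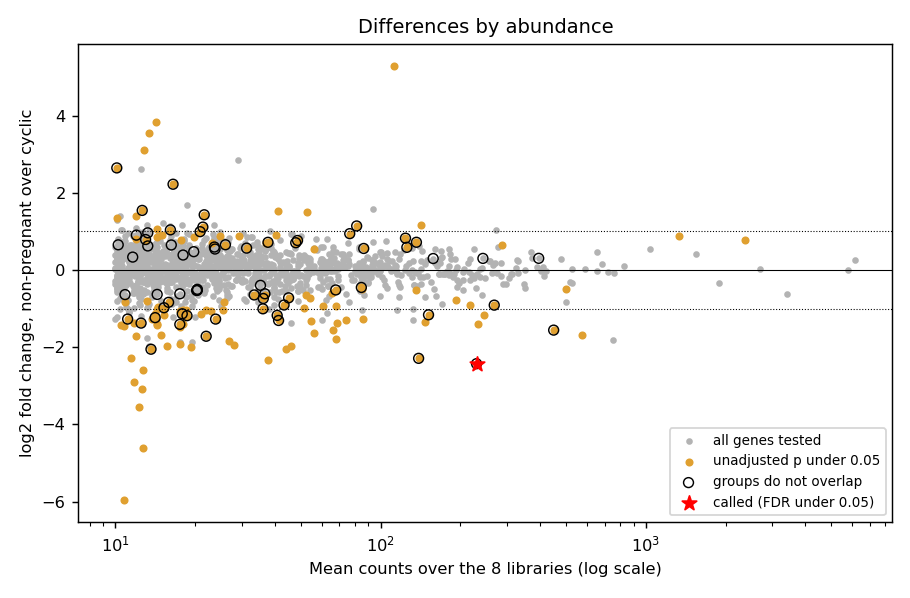
Log2 fold change of non-pregnant over cyclic heifers against the mean count over the 8 libraries (log scale) for the 1392 genes tested, with dotted lines at 2-fold. The 88 lower genes at an unadjusted p under 0.05 outnumber the 43 higher ones, circles mark the 65 genes whose groups do not overlap, and the star marks the 1 gene called.

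Among the 20 genes with the smallest p, 16 were lower and 4 higher in NP heifers. The groups did not overlap at 12 of the 20, beside 4.67% of all genes tested. At all 16 lower genes, every NP heifer lay below C heifers 3, 4 and 6. In the comparison without C heifer 5, the groups did not overlap at 204 of 1396 genes, 83 of them higher in NP heifers. C heifer 5 was the lowest of the cyclic heifers at 13 of these 16 genes, where it was the lowest at 32.0% of all genes tested. These genes were chosen by p on the same values, so the counts describe them and test nothing. The gene with the third smallest p is an extreme case (edgeR FDR 0.0674). It had 1, 0, 0 and 0 counts in NP heifers 72, 74, 75 and 77, against 25, 31, 0 and 29 counts in C heifers 3, 4, 5 and 6. C heifers 3, 4 and 6 thus held the gene, and C heifer 5 had no count of it, like most NP heifers, which at so few counts does not show absence. With so few NP counts, only a high level in C heifers could bring this gene past the rule on abundance. It is therefore no support for the pattern. The same limit holds for the lower genes ranked 8, 13, 17 and 19 by p, with at most 12 counts in any NP library. It also holds for the higher genes ranked 14 (ENSBTAG00000044123) and 18, with at most 10 counts in any C library. These passed the rule through the group in which they were high, so they too are no support for it.

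The genes past a 2-fold difference were not carried by all heifers of a group alike. Of the 34 higher in NP heifers, 20 (58.8%) had more than 50% of the summed NP level in a single heifer, which was heifer 74 for 9 genes, heifer 75 for 5, heifer 77 for 4 and heifer 72 for 2. Over all genes tested, this share was 10.8% in the NP group, so most of the higher genes of large size were high in 1 bred animal. Of the 85 lower in NP heifers, 11 (12.9%) had more than 50% of the summed C level in a single heifer, against 5.82% over all genes tested in the C group. At these 85 genes, C heifer 6 was the highest cyclic heifer for 44 (51.8%), where it was the highest at 25.1% of all genes tested. C heifer 5 was the lowest for 54 (63.5%), beside its 32.0% of all genes. C heifer 5 lay inside the range of the NP heifers at 46 of the 85 genes (54.1%), heifer 4 at 26 (30.6%), heifer 3 at 12 (14.1%) and heifer 6 at 7 (8.24%). Over all genes tested these shares were 67.0% for heifer 5, 66.1% for heifer 4, 61.2% for heifer 3 and 59.6% for heifer 6. A lower share at genes chosen for lower NP values follows from the choice. Genes past 2-fold were chosen on the same values, so these shares describe them and test nothing.

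Whole profiles set C heifers 3, 4 and 6 together but did not sort the 8 heifers by breeding. Across the 1392 genes, which are not independent replicates, the correlation of log2 CPM was 0.76 to 0.88 for the 6 pairs of NP heifers (median 0.79), 0.79 to 0.92 for the 6 pairs of C heifers (median 0.86) and 0.74 to 0.89 for the 16 pairs of an NP and a C heifer (median 0.81). Pairs of NP heifers were thus not more alike than pairs across the groups. C heifers 3, 4 and 6 were the closest set, at 0.90 to 0.92. For C heifer 5, the mean correlation was 0.803 with the other C heifers and 0.841 with the NP heifers, and its closest library was NP heifer 75 (0.893). For NP heifer 74, the mean correlation was 0.768 with the other NP heifers, 0.799 with the C heifers and 0.892 with the pregnant heifers. NP heifer 77 was also nearer to the C heifers (0.830) than to its own group (0.805). In all, 5 of the 8 heifers were on average closer to their own group and 3 to the other. Among the 8 libraries, the closest to NP heifers 74 and 77 was C heifer 4 (0.813 and 0.863). The closest to NP heifer 75 was C heifer 5, and the closest to NP heifer 72 was NP heifer 75 (0.875). C heifers 3, 4 and 6 were each closest to another of this set. NP heifer 74 was closer still to the pregnant heifers, at up to 0.932 with pregnant heifer 78. The labels and methods used here give no reason for these values, and neither a mix-up of samples nor a conceptus that was present in heifer 74 and not found was tested.

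**Figure D3:**
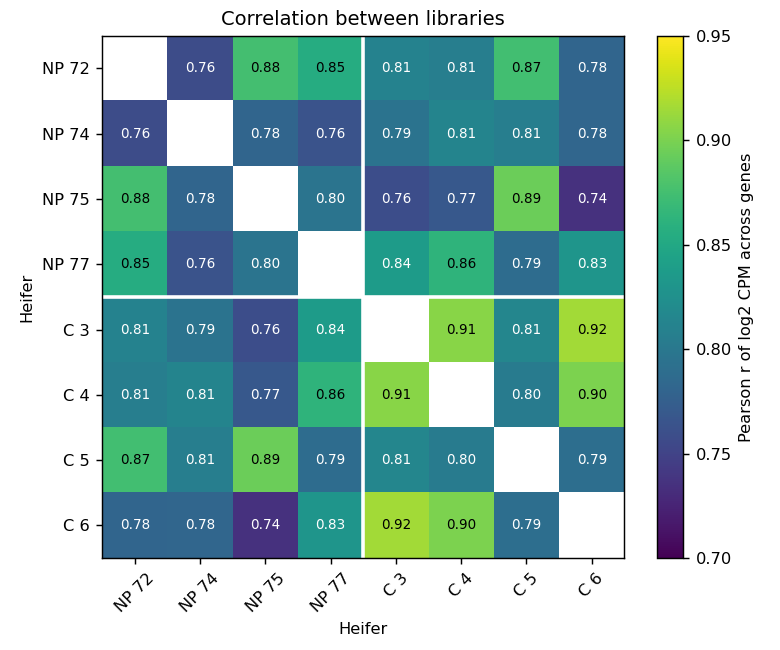
Pearson correlation of log2 CPM across the 1392 genes for each pair of the 8 heifers, non-pregnant (NP) above and left of cyclic (C), with white lines between the groups. Cyclic heifers 3, 4 and 6 form a block at 0.90 to 0.92, and cyclic heifer 5 is closest to non-pregnant heifer 75 at 0.89.

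Heifers within the NP group differed more from each other than those within the C group. The SD of log2 CPM between the 4 heifers of a group had a median of 0.50 in NP and 0.40 in C endometrium, and it was wider in NP at 884 of the 1392 genes (63.5%). Without NP heifer 74 the NP median was 0.39, and NP was wider at 712 genes (51.1%). Without C heifer 5 the C median was 0.32, and NP was wider at 1015 genes (72.9%). Without both heifers, the medians were 0.39 in NP and 0.32 in C, with NP wider at 865 genes (62.1%). The medians were level when NP heifer 74 alone was left out, and NP was wider in the other settings. With 1 heifer left out, 3 heifers stood against 4, and the SD of fewer values tends to be lower. Leaving out a heifer that stands apart also narrows its group by construction. These settings are thus not like for like. The totals of the NP libraries were also spread more widely than those of the C libraries, and the part of this in the spread of the genes was not tested. NP heifer 74 was the highest or lowest of all 8 heifers at 39.0% of the genes, where the other NP heifers were at 23.1% to 31.4% and the C heifers at 16.7% to 23.3%.

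**Figure D4:**
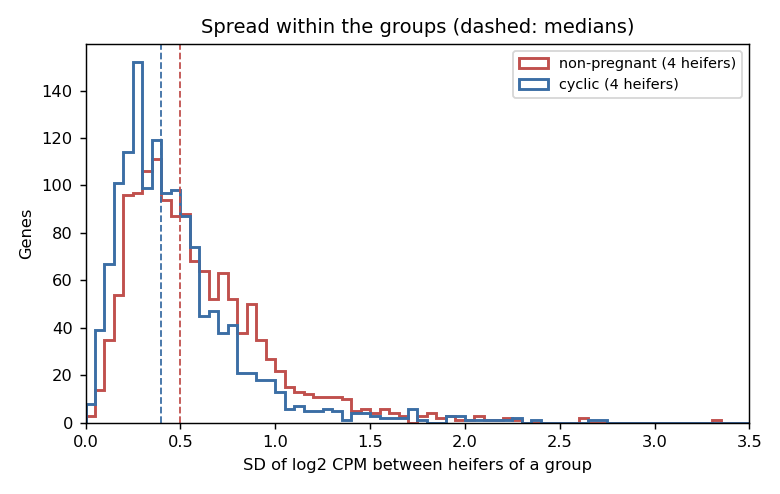
Number of genes by the SD of log2 CPM between the 4 heifers of a group, for non-pregnant and cyclic heifers, with dashed lines at the medians. The non-pregnant curve is shifted towards wider spread, with a median of 0.50 beside 0.40 in cyclic heifers.

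Because heifers 74 and 5 stood apart, the comparison was repeated without them. Without C heifer 5, edgeR called 8 of 1396 genes (0.573%), all lower in NP heifers, with log2 fold changes from -6.38 to -1.37. An unadjusted p under 0.05 was then found for 210 of the 1396 genes (15.04%), 88 higher and 122 lower in NP heifers. Without NP heifer 74, edgeR called 0 genes, and 208 genes (14.6%) had an unadjusted p under 0.05, 90 higher and 118 lower. Without both, edgeR called 18 of 1433 genes (1.26%), 3 higher by log2 fold changes of 1.29 to 1.68 and 15 lower by -6.17 to -1.25, and 282 genes (19.7%) had an unadjusted p under 0.05. The lean towards lower genes was then small, with 135 higher and 147 lower in NP heifers. Leaving out the heifers least like their group narrows the spread by construction, so these counts show what rests on the pair and are no stronger evidence of a difference.

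**Figure D5:**
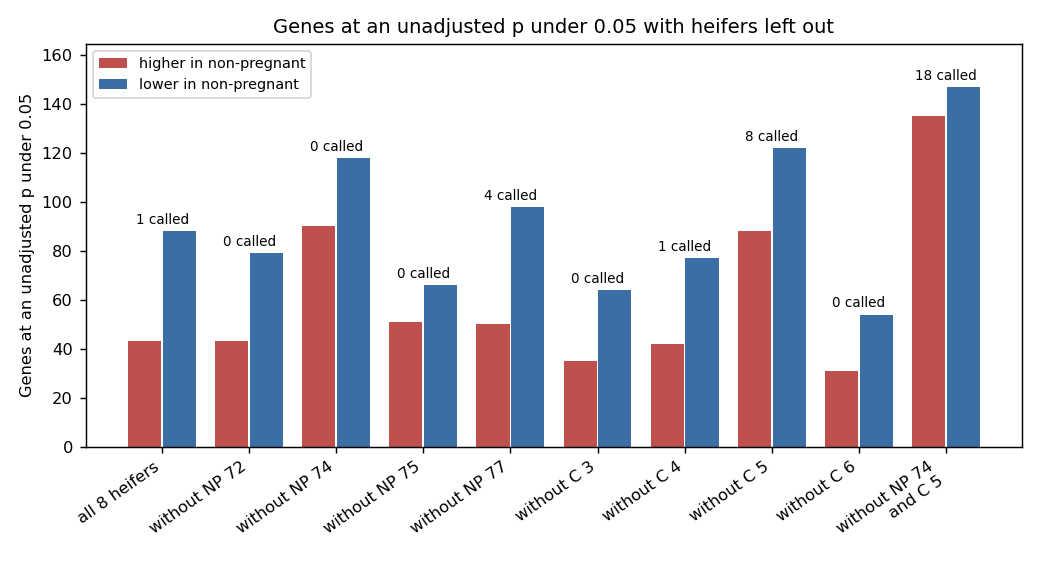
Genes with an unadjusted edgeR p below 0.05, counted as higher or lower in non-pregnant heifers, with all 8 heifers and with the heifers named left out, and above each pair of bars the number of genes called. Counts rise most without non-pregnant heifer 74, without cyclic heifer 5 and without both (135 higher, 147 lower, 18 called).

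How large a difference could have been missed depended on abundance. For the 603 genes with a mean of 10 to 20 counts, the 95% interval of the fold change reached a median factor of 1.94 on either side of the estimate. This factor was 1.71 for the 417 genes with 20 to 50 counts, 1.57 for the 185 genes with 50 to 100 counts and 1.503 for the 187 genes with 100 or more counts. The share of genes past 2-fold was 11.4% in the lowest class and 5.28%, 7.03% and 8.02% in the next classes. An unadjusted p under 0.05 was found at 9.12%, 8.15%, 11.4% and 11.2% of the genes from the lowest to the highest class. The 95% interval lay wholly within 2-fold in either direction for 489 of the 1392 genes (35.1%), at 18.6% of the genes with 10 to 20 counts, 39.3% of those with 20 to 50, 57.3% of those with 50 to 100 and 57.2% of those with 100 or more. For the other genes, a difference of 2-fold between NP and C endometrium was not excluded at these counts.
The 100 most abundant genes gave shares near those over all genes. Of the 10 with the highest mean CPM, 0 differed by more than 2-fold, with log2 fold changes from -0.63 to 0.88, 2 had an unadjusted p under 0.05, and the groups overlapped at all 10. Of the 100 with the highest mean CPM, 7 differed by more than 2-fold, 12 had an unadjusted p under 0.05 and 5 did not overlap between groups, with a median log2 fold change of -0.04. Over all genes tested these shares were 8.55%, 9.41% and 4.67%. The gene called, ENSBTAG00000030648, ranked 66 by mean CPM and is among the 100.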

How the data were processed

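RNA from caruncular endometrium was sequenced as single-end reads from TruSeq Stranded mRNA libraries. The authors trimmed and filtered reads in Prinseq, mapped them with HISAT2 (assembly ARS-UCD1.2), used SAMtools to sort, and deposited raw counts per Ensembl gene from htseq-count, whose strand setting is not given in the sources used here. What each count stands for rests on that setting, and genes that overlap another are uncertain without it. The authors' comparison tables (mean, log2 fold change, standard error, statistic, p and adjusted p) were not used.

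Genes with a mean of 10 or more counts over the 8 NP and C libraries were normalized by TMM and fitted with all 12 libraries (3 groups, no covariate) by edgeR 4.0.16 in R 4.3.3. The quasi-likelihood F-test gave p-values for NP against C, which were adjusted by Benjamini-Hochberg over all 1392 genes. A gene was called past a 2-fold change with an adjusted p (FDR) below 0.05. The common dispersion came to a coefficient of variation of 0.394. As standard error was taken the log2 fold change divided by the square root of F. Log2 CPM used a prior count of 2. No pair of libraries within a group agreed within counting error (chi-square of at least 2.75 per degree of freedom). The fit was tested on simulated data.

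Library measures were compared by exact permutation. As the alternatives, DESeq2 1.42.0, limma 3.58.1, other scalings and filters, and leaving out heifers were run. With unpaired IDs, the genes named were those with the 2 smallest p in each direction, and gene lists were not used. The comparison and these rules were chosen with earlier results of these data known. Python 3.11.15 with matplotlib 3.10.9 drew the figures.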

Additional observations from a re-analysis of the deposited data

Results flagged for a closer look

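The gap of the highest or lowest heifer to its nearest neighbour, relative to the range of its group of 4, was examined for 26 sets of values, of which about 1.3 would stand apart by chance. In 4 of them a heifer did, and the sets come from the same libraries and are not independent. NP heifer 75 had 162 CPM of ENSBTAG00000009565, where the other NP heifers had 277 to 294. For NP heifer 74, the mean correlation with the pregnant heifers was 0.892, where the other NP heifers had 0.795 to 0.805. For C heifer 5, the mean correlation with the other C heifers was 0.803, where these had 0.869 to 0.878 with theirs. C heifer 5 also lay at -14.1 on the first principal component of the 8 libraries (35.1% of the variance), where the other C heifers lay between 13.0 and 17.8.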

How the results depend on the processing

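With all 8 heifers, 1 gene was called, 131 had an unadjusted p under 0.05, 119 were past 2-fold and 65 did not overlap. Of genes called, there were 0 with library totals alone, 7 with DESeq2 on 12 libraries, 4 with DESeq2 on the 8 compared, 0 with edgeR on these 8, and 53 with no filter, where 831 genes had an unadjusted p under 0.05 and 6350 were past 2-fold among 15896 tested. With a mean of 20 or more counts (789 genes), 75 had an unadjusted p under 0.05, 49 were past 2-fold and 42 did not overlap. Without both heifers 74 and 5, these were 282, 242 and 370, with 18 called. Leaving out each of the 8 heifers in turn gave 0 to 8 genes called (most without C heifer 5), 85 to 210 at an unadjusted p under 0.05 (fewest without C heifer 6), 105 to 200 past 2-fold and 82 to 204 not overlapping, where a smaller group overlaps less by construction. Leaving out each pregnant heifer, added after seeing the data, gave 0 or 1 genes called (0 without heifer 73 or 79), 126 to 144 at an unadjusted p under 0.05 and 119 to 120 past 2-fold. ENSBTAG00000030648 kept its direction in all 23 alternatives (log2 fold change -2.61 to -2.09) and was called in 14 of them. The difference in total counts was -2186 to 17349, in genes with a count -183 to 691 and in the share of the 10 most abundant genes -0.91 to 2.54 percentage points when 1 heifer was left out, and turned sign without NP heifer 77 (-2186 and -183) or 74 (-0.91). The cause was not tested beyond the genes and heifers each alternative leaves out. Marker lists were not run, since no ID was paired with a symbol. No paired analysis was run, because the study describes no pairing of heifers and the groups share no number in the sample titles. Low counts limit genes of low abundance most.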
